A study of Mus musculus with 7 samples.

Results

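A set of 10 genes of brain endothelial cells and of the blood-brain barrier were followed in bulk RNA-Seq libraries of a mouse glioma model. They were taken by symbol from the 19257 genes of the deposited table, which held all 10 of 10: Cldn5, Slco1a4, Mfsd2a, Abcb1a, Pecam1, Cdh5, Ly6c1, Flt1, Kdr and Tek. The libraries came from endpoint tumors of mice on CD-1 and C57BL/6 backgrounds, collected under a fluorescence microscope, with 3 of the 3xCR group (replicates 2, 3 and 4) and 4 of the GPC6 group (replicates 1 to 4). In both groups, progenitors along the lateral ventricles of the embryo had received Cas9 with guides to tumor suppressors including Trp53 and Nf1, and a piggyBac transposon labelled the cells with GFP. The GPC6 group also overexpressed the glypican GPC6 from a piggyBac transposon, so that the transgene was put into the electroporated progenitors. The strain, sex and age behind each library are not given in the sources used here, and the set holds no normal brain. Values are read counts per gene that the authors divided by a size factor for each library, called normalized counts below, and fold changes are differences in log2(normalized count + 1), GPC6 minus 3xCR. Lists of 3 values below give 3xCR replicates 2, 3 and 4, and lists of 4 values give GPC6 replicates 1, 2, 3 and 4, in that order.

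The blood-brain barrier is formed by endothelial cells that seal the gaps between them with tight junctions, take up little by vesicles, and pump drugs and metabolites back to the blood. It depends on Wnt signals from neural cells and on pericytes, the contractile cells of the capillary wall. In gliomas, vessels grow under VEGF and angiopoietin, and the barrier is known to become leaky in places. The genes fall into 3 roles here: barrier genes (the tight junction protein Cldn5, the organic anion carrier Slco1a4, the lipid carrier Mfsd2a that holds down vesicle transport, and the efflux pump Abcb1a), surface genes of endothelial cells (Pecam1, Cdh5 and Ly6c1), and receptor kinases of vessel growth (the VEGF receptors Flt1 and Kdr, and the angiopoietin receptor Tek).

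Between 7197692 and 18879762 reads were counted on genes per library. Gpc6 itself was at 126 to 226 normalized counts in 3xCR and at 675, 263, 3434 and 5084 in GPC6, so the library labelled GPC6 replicate 2 lay close to the 3xCR level. The lowest and the highest fold changes of all genes were those of Xist (-5.21), which silences an X chromosome, and Eif2s3y (4.31), a gene of the Y chromosome, and the part of sex in the results was not tested. The tissue label (brain, neural) was met by neuron markers in all 7 libraries, although unevenly: their sum over 6 genes was 43029 in GPC6 replicate 1 and 2337 to 20187 in the other 6 libraries. In 3xCR replicate 4 most of the sum was Stmn2 (1776) and Tubb3 (1316), while Snap25 was at 126 and Rbfox3 at 13.8. GPC6 replicate 1 also had the highest sum of choroid plexus markers (12572, against 66.9 to 3738), and 3xCR replicate 4 the highest sums of fibroblast markers (47027, against 413 to 3966) and of monocyte and neutrophil markers (3507, against 148 to 950). The part of these cells in the results below was not tested. Since whole tissue was sequenced, fewer endothelial cells and less RNA per endothelial cell cannot be told apart.

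No difference between the tumor types passed adjustment for any of the 10 genes. With limma across 14782 genes and Benjamini-Hochberg adjustment, 0 of the 10 passed an adjusted p of 0.05, as did 0% of all genes. At an unadjusted p under 0.05 there was 1 of the 10, Flt1, higher in GPC6, where 2.74% of all genes were higher and 1.92% lower at that level. By edgeR on the recovered reads 0 of the 10 passed adjustment and 1 (Flt1) had an unadjusted p under 0.05, as did 0% and 6.7% of all genes. DESeq2 gave an adjusted p to 5 of the 10, of which 0 passed, and an unadjusted p under 0.05 to 2 of the 10 (Flt1 and Slco1a4), where 0.0998% of the 9018 genes given an adjusted p passed adjustment and 12.2% of genes had an unadjusted p under 0.05. The groups did not overlap in 0 of the 10, either way, against 2.8% of all genes that were higher and 3.52% that were lower in every GPC6 library. The mean log2 value was higher in GPC6 for 8 of the 10 and lower for Cldn5 and Ly6c1. The median fold change over the 10 was 0.40 on the log2 scale, against -0.019 over all genes tested. The order of the libraries changed from gene to gene.

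**Figure D1:**
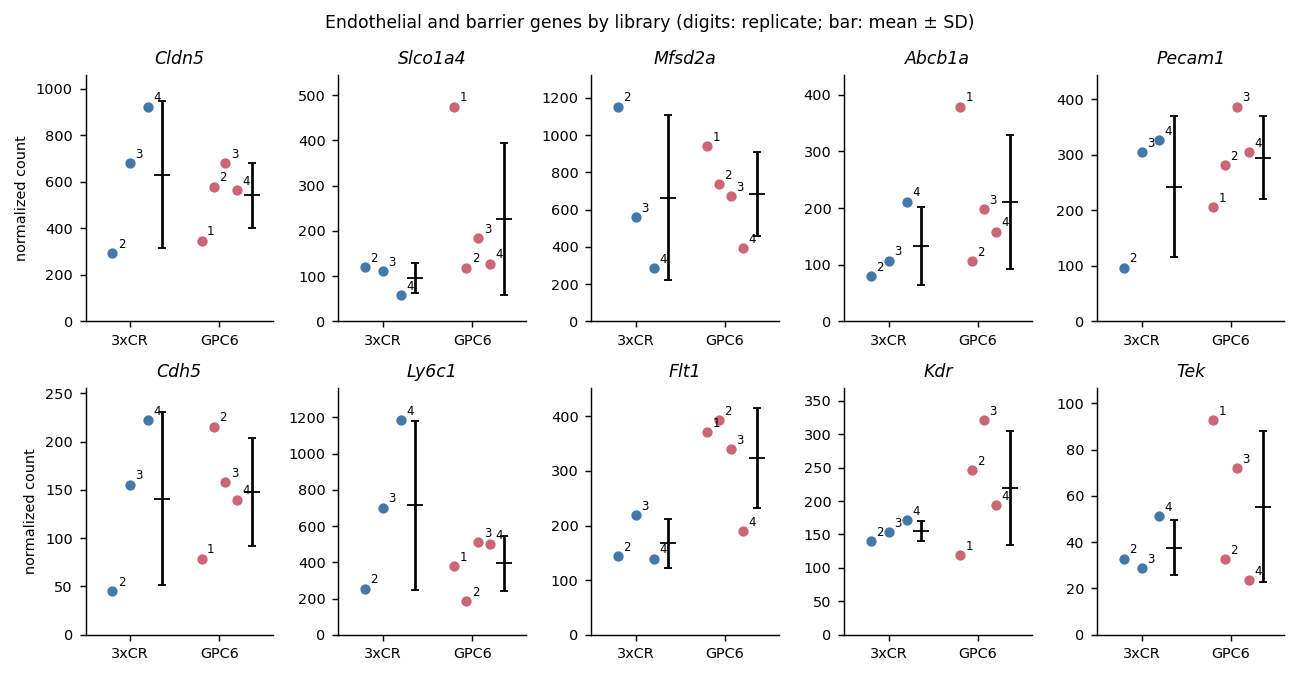
Normalized counts (vertical axes, linear from 0) of the 10 genes in each library, with 3xCR in blue, GPC6 in red, digits for the replicate and black bars for the mean ± SD of 3 and 4 libraries. The groups overlap in every panel, 3xCR replicate 2 is lowest for Cldn5, Abcb1a, Pecam1 and Cdh5 but highest for Mfsd2a, and GPC6 replicate 1 is highest for Slco1a4, Abcb1a and Tek.

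Promoter sequence of 250 bases before the start of the gene is shown for the genes the results turn on: Cldn5 and Mfsd2a, whose orders over the libraries ran against each other, and Flt1, which came nearest to a difference between groups. The RefSeq table of GRCm38.p6 had entries for 8 of the 10 genes, not for Pecam1 and Cdh5. Capitals mark GGAA on either strand, the core of the sites of ETS factors, which many endothelial genes use. In Cldn5 (chr16:18776597-18776846, plus strand), Mfsd2a (chr4:122961189-122961438, minus strand) and Flt1 (chr5:147726012-147726261, minus strand) the windows read, each in the direction of its gene:
Cldn5: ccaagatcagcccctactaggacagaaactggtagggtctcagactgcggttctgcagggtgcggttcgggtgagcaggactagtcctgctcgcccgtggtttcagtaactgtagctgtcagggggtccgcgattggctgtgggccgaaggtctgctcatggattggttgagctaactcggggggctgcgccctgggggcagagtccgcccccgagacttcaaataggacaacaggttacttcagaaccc
Mfsd2a: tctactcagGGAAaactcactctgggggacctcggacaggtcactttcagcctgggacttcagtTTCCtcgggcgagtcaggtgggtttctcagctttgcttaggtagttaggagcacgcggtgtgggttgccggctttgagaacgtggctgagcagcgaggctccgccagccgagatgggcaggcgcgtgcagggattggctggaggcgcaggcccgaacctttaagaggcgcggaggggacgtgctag
Flt1: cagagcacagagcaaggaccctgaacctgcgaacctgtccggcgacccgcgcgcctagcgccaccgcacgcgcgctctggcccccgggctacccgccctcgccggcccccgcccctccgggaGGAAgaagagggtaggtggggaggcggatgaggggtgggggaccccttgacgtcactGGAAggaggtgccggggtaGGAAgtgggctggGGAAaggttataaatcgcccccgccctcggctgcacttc

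These windows held 0, 2 and 4 matches to GGAA, a set of letters that 93.4% of 27025 promoters of this length hold at least once. The GC box GGGCGG, also read on both strands, had 1, 0 and 3 matches and occurs in 32.9% of promoters. CTTTGA, a core of TCF/LEF sites at which the Wnt pathway acts, had 1 match in Mfsd2a and 0 in the others, and 14% of promoters hold it. These are matches of letters in a window and no evidence of binding.

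Per kilobase of merged exons the barrier genes Cldn5 and Mfsd2a and the surface gene Ly6c1 stood well above the other 7. Cldn5 (chr16:18776847-18778262, a gene of 1416 bases of exon) had a mean of 409.9 normalized counts per kilobase over the 7 libraries (SD 151), Ly6c1 had 317 (SD 200.4) and Mfsd2a 301 (SD 134). Then came Pecam1 (43.7, SD 15.1), Cdh5 (34.5, SD 15.6), Abcb1a (32.3, SD 18.5), Slco1a4 (26.6, SD 21.7), Kdr (21.3, SD 7.77), Flt1 (19.0, SD 8.06) and Tek (10.1, SD 5.48). The step from Mfsd2a to Pecam1 held in 7 of 7 libraries, with a mean log2 ratio of 2.75 (SD 1.26). Each other pair of neighbours changed places in at least 1 library, so that the level of Slco1a4 per kilobase, for example, was above that of Kdr in 3 of 7. The exon lengths are those of GENCODE, and the gene models behind the counts may differ from them. The fewest reads behind any value were 23, for Tek in GPC6 replicate 4, for which the 95% Poisson interval is 14.6 to 34.5 and covers counting error only.

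Among the barrier genes, Cldn5, the claudin that closes the endothelial tight junction, had no detectable difference between the tumor types. It was at 293, 679 and 923 normalized counts in 3xCR tumors and at 346, 579, 679 and 564 in GPC6 tumors. The low libraries were 3xCR replicate 2 and GPC6 replicate 1, and the 3xCR range enclosed all GPC6 values. The fold change was -0.11 (95% interval -1.08 to 0.86, limma adjusted p = 0.947), and leaving out a single library moved it from -0.59 (3xCR replicate 2) to 0.24 (3xCR replicate 4).

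Slco1a4 encodes a carrier of organic anions and thyroid hormone in the brain endothelium and lies on chromosome 6 (chr6:141805440-141856199, minus strand). In 3xCR tumors it was at 119, 112 and 58.0 normalized counts. In GPC6 tumors it was at 475, 119, 184 and 128. GPC6 replicate 1 was the highest of the 7 libraries, GPC6 replicate 2 lay inside the 3xCR range, and GPC6 replicates 3 and 4 lay above it. The fold change of 1.05 was the largest of the 10 genes (95% interval -0.19 to 2.28, adjusted p = 0.730 by limma), and it was 0.61 without GPC6 replicate 1. DESeq2 gave Slco1a4 an unadjusted p of 0.038 and edgeR one of 0.068. Of its close relatives in the same gene cluster, Slco1a5 had 9.87 to 51.1 normalized counts in 3xCR and 6.18 to 10.6 in GPC6, a fold change of -1.61 that runs the other way from that of Slco1a4 (limma, unadjusted p = 0.042, adjusted p = 0.730). Slco1a6 was at 1.10 or less in every library. How reads shared between these genes were counted is not stated, so the levels of Slco1a4 and Slco1a5 are uncertain.

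Mfsd2a carries lysophosphatidylcholine with omega-3 fatty acids into the brain and restrains transcytosis. Within 3xCR its order was the opposite of that of Cldn5. Mfsd2a stood at 1153, 559 and 285 normalized counts in 3xCR tumors, so that the libraries at the ends of that group changed places between the 2 genes. GPC6 tumors had 941, 737, 672 and 394. The highest and the lowest of the 7 values both belonged to 3xCR, the fold change was 0.20 (95% interval -0.93 to 1.34, limma adjusted p = 0.910), and it turned to -0.29 without 3xCR replicate 4.

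Abcb1a encodes the P-glycoprotein of the mouse blood-brain barrier, which pumps many drugs out of the endothelium. The 3xCR tumors had 80.0, 107 and 211 normalized counts and the GPC6 tumors 379, 107, 198 and 158. As for Slco1a4, GPC6 replicate 1 was the highest library, and the other GPC6 values lay inside the 3xCR range. The fold change was 0.63 (95% interval -0.53 to 1.79, limma adjusted p = 0.746) and 0.29 without GPC6 replicate 1. Its near copy Abcb1b, a pump found in other cell types as well, had its lowest value, 35.5 normalized counts, in the library where Abcb1a was highest, and 80.6 to 341 in the other 6. Reads that match both genes may have been split between them in a way that is not stated.

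The surface genes Pecam1 and Cdh5 mark endothelial cells most broadly, Pecam1 as an adhesion molecule that platelets and leukocytes also carry and Cdh5 as the cadherin of endothelial junctions. Normalized counts of Pecam1 were 97.0, 305 and 326 for 3xCR tumors, against 206, 282, 387 and 305 for GPC6 tumors. Those of Cdh5 were 44.9, 155 and 222, against 78.8, 215, 158 and 139.9. In both genes 3xCR replicate 2 was the lowest library and GPC6 replicate 1 the next, as for Cldn5. The fold changes were 0.43 for Pecam1 (95% interval -0.63 to 1.49, limma adjusted p = 0.798) and 0.26 for Cdh5 (95% interval -1.10 to 1.62, limma adjusted p = 0.903). Their direction rested on 3xCR replicate 2, without which they were -0.13 and -0.41.

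Ly6c1 encodes a small protein anchored on the outside of brain capillary endothelium, and a nearly identical gene, Ly6c2, is used by monocytes. Ly6c1 reached 254, 702 and 1185 normalized counts in the 3xCR tumors, against 379, 186, 510.1 and 500.0 in the GPC6 tumors. Apart from 3xCR replicate 2, the 3xCR libraries lay above all GPC6 libraries. The fold change was -0.70 (95% interval -2.01 to 0.61, limma adjusted p = 0.746), the lowest of the 10. Leaving out 3xCR replicate 2 gave -1.32 (limma, unadjusted p = 0.028, where 7.67% of all genes fell under 0.05) and leaving out 3xCR replicate 4 gave -0.21. For Ly6c2 the values were 203, 366 and 2394, against 122, 205, 491 and 236, so 3xCR replicate 4 was highest in both. Since the counting rule for reads that fit both genes is not stated, the levels of the pair are uncertain, and the part of monocytes in the value of Ly6c1 was not tested.

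Flt1 is the VEGF receptor that binds VEGF tightly but signals weakly, and its soluble form acts as a trap for the ligand. It was at 144, 219 and 139.5 normalized counts in 3xCR tumors. In GPC6 tumors it was at 371, 393, 339.7 and 189. The first 3 GPC6 libraries were above all 3xCR libraries, while GPC6 replicate 4 lay below 3xCR replicate 3. The highest value of Flt1 was in GPC6 replicate 2, where Gpc6 was at 263 normalized counts. Its lowest GPC6 value was in replicate 4, where Gpc6 was highest (5084). Whether Flt1 followed the level of Gpc6 was not tested. The means of Flt1 were 167 ± 44.5 (SD, n = 3) and 323 ± 92.0 (SD, n = 4), and the fold change was 0.92 (standard error 0.33, 95% interval 0.16 to 1.69). By limma the unadjusted p was 0.024 and the adjusted p = 0.730, so the difference did not pass adjustment. It did not pass an unadjusted p of 0.05 either without 3xCR replicate 2 or 4, or without GPC6 replicate 2 or 3, with limma p of 0.077, 0.077, 0.061 and 0.058.

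Kdr is the main signalling receptor for VEGF in endothelial cells. The 3xCR tumors lay close together at 140.3, 153 and 171 normalized counts (SD 15.5). The GPC6 tumors had 119, 246, 321 and 193. Here GPC6 replicate 1 was the lowest of all libraries, whereas the other 3 GPC6 libraries were above every 3xCR library. The fold change was 0.42 (95% interval -0.41 to 1.24, limma adjusted p = 0.753). Without GPC6 replicate 1, that lowest library, it was 0.68 (limma, unadjusted p = 0.041, where 3.17% of all genes fell under 0.05). With weights estimated for each library, Kdr was the only member of the 10 with an adjusted p under 0.05 by limma (fold change 0.90, unadjusted p = 0.00195), in a fit that called 1962 of the 14782 genes, or 13.3%, so 1 of 10 lay near the share of all genes.

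Tek, also named Tie2, is the receptor of the angiopoietins and keeps mature vessels quiescent. It had the lowest level of the 10, with 32.9, 28.8 and 51.1 normalized counts for 3xCR and 92.7, 32.6, 71.9 and 23.7 for GPC6. GPC6 held both the highest and the lowest library. The fold change was 0.38 (95% interval -0.91 to 1.67, limma adjusted p = 0.849) and 0.066 without GPC6 replicate 1.

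**Figure D2:**
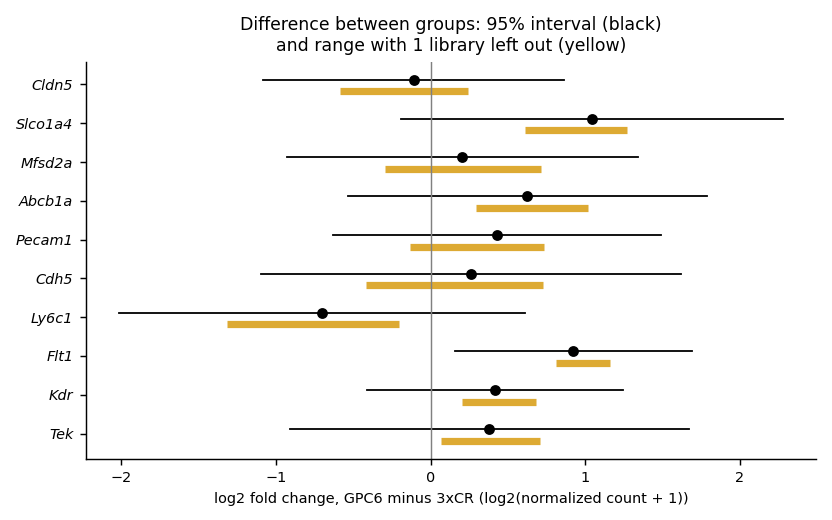
Fold change of each gene between GPC6 and 3xCR tumors on the log2(normalized count + 1) scale (horizontal axis), with black points and lines for the estimate and its 95% interval by limma and yellow bars for the range of estimates with 1 library left out at a time. The interval excludes 0 for Flt1 alone (0.16 to 1.69), and the yellow bars cross 0 for Cldn5, Mfsd2a, Pecam1 and Cdh5.

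Because the amount of endothelial RNA may differ between pieces of tumor, each gene was also set against the mean log2 value of Pecam1 and Cdh5 in the same library. This is a description that carries no test. Cldn5 kept closest to these genes, with log2 ratios between 1.23 and 2.13 over the 7 libraries. The log2 ratio of Cldn5 was 2.13, 1.64 and 1.77 in 3xCR and 1.44, 1.23, 1.45 and 1.44 in GPC6, so that the groups did not overlap. On average Cldn5 stood 3.60-fold above the pair in 3xCR and 2.62-fold in GPC6. The log2 ratio of Ly6c1 did not overlap either, at 1.92, 1.68 and 2.13 in 3xCR and 1.56, -0.41, 1.04 and 1.27 in GPC6. These were 2 of 8 genes with a lower ratio in every GPC6 library, and 0 of 8 had a higher one. Over all genes tested, 5.02% had a lower ratio to the pair in every GPC6 library and 0.0135% a higher one. Pecam1 and Cdh5 themselves had positive fold changes (0.43 and 0.26), whose direction rested on 3xCR replicate 2. A higher pair lowers the mean ratio of every gene in GPC6. Whether genes that vary with the pair separate more easily was not tested. The ratio of Ly6c1 carries the doubt over reads shared with Ly6c2.

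Ly6c1 and the other 6 genes moved more against Pecam1 and Cdh5 than Cldn5 did. The span from the lowest to the highest library was 16.96-fold for the ratio of Slco1a4, 16.3-fold for Mfsd2a and 6.79-fold for Abcb1a. It was 6.14-fold for Tek, 5.81-fold for Ly6c1, 5.57-fold for Flt1 and 3.30-fold for Kdr, against 1.87-fold for Cldn5. For Kdr the log2 ratio was highest in 3xCR replicate 2 (1.07), while GPC6 replicate 1 (-0.098) lay below GPC6 replicates 2, 3 and 4. Apart from Ly6c1 and Kdr, the highest and next highest ratios of these genes belonged to 3xCR replicate 2 and GPC6 replicate 1. For Mfsd2a the log2 ratios of these libraries were 4.10 and 2.88, against 0.079 to 1.58 in the other 5, and for Slco1a4 they were 0.84 and 1.89, against -2.20 to -0.43. The same libraries had the lowest values of Pecam1, Cdh5 and Cldn5. As Pecam1 and Cdh5 are the denominator, a low value of theirs raises every ratio in that library. Summed neuron markers were 4622 in 3xCR replicate 2 and 43029 in GPC6 replicate 1, and 2337 to 20187 in the other 5, of which GPC6 replicates 3 and 4 lay above 3xCR replicate 2. Summed astrocyte markers were 49498 and 44148, and 12850 to 45070 in the other 5. The part of these cells in the ratios was not tested.

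**Figure D3:**
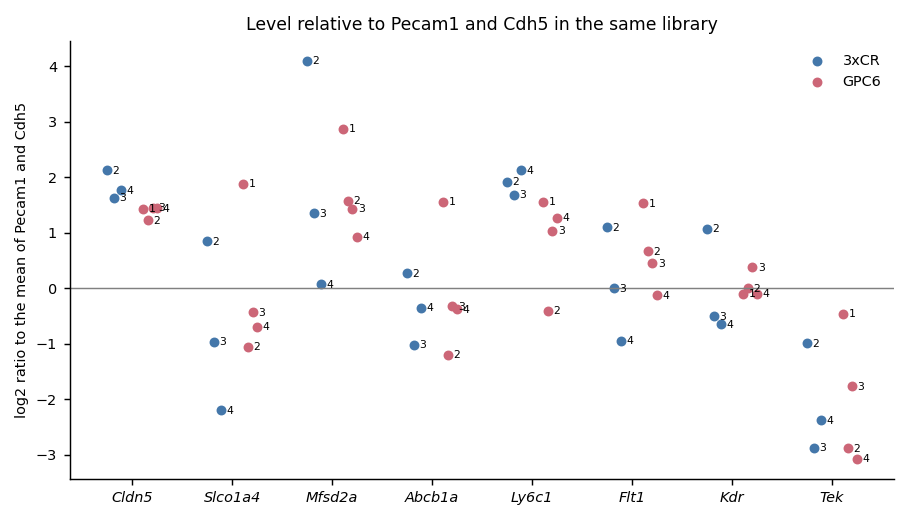
Log2 ratio of each gene to the mean log2 value of Pecam1 and Cdh5 in the same library (vertical axis), 3xCR in blue and GPC6 in red, with digits for the replicate. Cldn5 lies within 1.23 to 2.13 with all 3xCR libraries above all GPC6 libraries, while 3xCR replicate 2 and GPC6 replicate 1 stand high for Mfsd2a, Slco1a4, Abcb1a, Flt1 and Tek.

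Other genes of the same vessels were read from lists. Of the 20 other endothelial genes, all were tested, 12 had a positive and 8 a negative fold change with a median of 0.17, and 1 passed an unadjusted p of 0.05. This was Egfl7, which encodes a factor secreted by endothelial cells and hosts a microRNA. It had 819, 433 and 620.2 normalized counts in 3xCR and 212, 207, 471 and 246 in GPC6, a fold change of -1.17 (limma adjusted p = 0.730). Cd34, the sialomucin of highest level in the list, had a fold change of -0.17, and the ends of the list were the transcription factor Sox17 (0.72) and the junction protein Ecscr (-1.55, with 496 normalized counts in 3xCR replicate 4, 12.4 in GPC6 replicate 1 and 63.8 to 87.4 elsewhere). Nos3, the nitric oxide synthase of endothelium, was the single gene of the list with no overlap, at 33.4 to 60.8 normalized counts in 3xCR and 62.8 to 100.2 in GPC6. Its unadjusted p was 0.093 and its adjusted p 0.730 by limma, and 2.8% of all genes were higher without overlap.

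Of 8 further junction genes, 4 had positive and 4 negative fold changes, the median was 0.027 and 0 had an unadjusted p under 0.05 by limma. Cgn, the tight junction plaque protein cingulin, had the highest fold change (1.13) and Marveld2, or tricellulin, the lowest (-0.36), with no library above 60.7 normalized counts for either, while Jam2, the most abundant, was at -0.082. Of 12 further barrier transporters, 7 were positive and 5 negative with a median of 0.17, and again 0 had an unadjusted p under 0.05. Slc7a5, the large neutral amino acid carrier, was the most abundant and had the lowest fold change (-0.70), while Slc22a8, an organic anion exporter, had the highest (0.80). Slc22a8 was at 93.2 and 95.8 normalized counts in 3xCR replicate 2 and GPC6 replicate 1, below GPC6 replicate 3 (108) and above the 12.4 to 37.5 of the other 4 libraries.

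In the Wnt pathway that induces the barrier, 0 of 14 genes had an unadjusted p under 0.05 by limma, with 8 positive and 6 negative fold changes and a median of 0.044. The ligand Wnt7a was at one end (0.55), the coreceptor anchor Reck at the other (-0.33), and Tnfrsf19, a Wnt target of the barrier, was the most abundant (0.16). Of 10 genes tied to permeability, 8 were tested and 0 passed an unadjusted p of 0.05, with a median of -0.16. Ackr1, a venous chemokine receptor, had a fold change of 0.96, the caveola gene Cavin2 (listed under its older symbol Sdpr) -0.54, and the leukocyte adhesion molecule Vcam1, the most abundant, -0.17. Plvap, which forms the diaphragms of fenestrated vessels and is low in an intact barrier, had 102, 97.7 and 145 normalized counts in 3xCR and 403, 159, 149.9 and 44.2 in GPC6. Its highest library was GPC6 replicate 1, which also had the highest sum of choroid plexus markers, and the part of that tissue in the value was not tested.

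The ligands and partners of the 3 receptors had 2 positive and 9 negative fold changes among 11 genes, a median of -0.22, and 0 past an unadjusted p of 0.05 by limma. The 2 positive genes, Ptprb and Tie1, are also counted among the other endothelial genes above. Vegfa, the ligand of Flt1 and Kdr, had 355, 1009 and 884 normalized counts in 3xCR and 355, 868, 1314 and 437 in GPC6, a fold change of -0.071 (limma adjusted p = 0.976). Angpt2, the angiopoietin that sprouting endothelium releases, had 152, 481 and 210 in 3xCR and 37.1, 310.2, 518 and 267 in GPC6 (fold change -0.31). The low libraries of both were again 3xCR replicate 2 and GPC6 replicate 1. The ends of this list were Ptprb, a phosphatase that acts on Tek (0.59), and the lymphatic ligand Vegfc (-0.999). The 10 genes of angiogenic and tip cells were split 5 to 5 around a median of -0.026 with 0 past an unadjusted p of 0.05, from Aplnr (-0.98) to Apold1 (0.67). Apln, the ligand of Aplnr and the most abundant of them, was at 128 and 105 in 3xCR replicate 2 and GPC6 replicate 1 and at 365 to 947 in the other 5 libraries. Arterial and venous genes had a median of -0.014 over 6 of 9 tested, from Ephb4 (-0.65) to Efnb2 (0.35), with Hey1 the most abundant (-0.011).

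Cells around the vessels showed no difference past an unadjusted p of 0.05 by limma either. The 13 mural cell genes, of pericytes and smooth muscle, had 6 positive and 7 negative fold changes with a median of -0.19, from the smooth muscle gene Tagln (-1.67, also the most abundant) to the pericyte gene Atp13a5 (1.205). Higd1b was the single mural gene without overlap, at 11.1 to 20.5 normalized counts in 3xCR and 20.6 to 26.3 in GPC6. Its unadjusted p was 0.257 by limma, and 2.8% of all genes were higher without overlap. The 6 genes of perivascular fibroblasts had a median of -1.68, from Col3a1 (-2.52) to Slc6a13 (0.26), and their sums were 588, 1537 and 47027 in 3xCR against 413 to 3966 in GPC6. In all, 141 list genes other than the 10 were tested, of which 2 were higher and 3 lower in GPC6 at an unadjusted p under 0.05 (3.55%). Besides Egfl7 these were the neuronal genes Snap25 (fold change 3.02) and Syn1 (2.36) and the microglial genes Tmem119 (-1.08) and Aif1 (-1.31), each with an adjusted p of 0.730 by limma. Tmem119 and Aif1 were also lower without overlap, as were 3.52% of all genes. Medians were 2.53 over 6 neuron genes, 0.080 over 5 astrocyte genes (Aqp4 -0.63, Slc1a3 0.62, Gfap the most abundant), -0.84 over 5 oligodendrocyte genes (Mbp -1.15, Cnp -0.28) and -0.41 over 5 microglia genes (Csf1r -0.18, also the most abundant). They were -0.61 over 5 monocyte and neutrophil genes (Ly6c2 -1.27, S100a9 0.47), -0.96 over 6 choroid plexus genes (Ttr -3.20, Clic6 -0.68) and -0.76 over 3 genes of red cells and platelets (Alas2 -0.86, Pf4 -0.042, Itga2b the most abundant). The lowest neuron gene was Stmn2 (0.16).

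**Figure D4:**
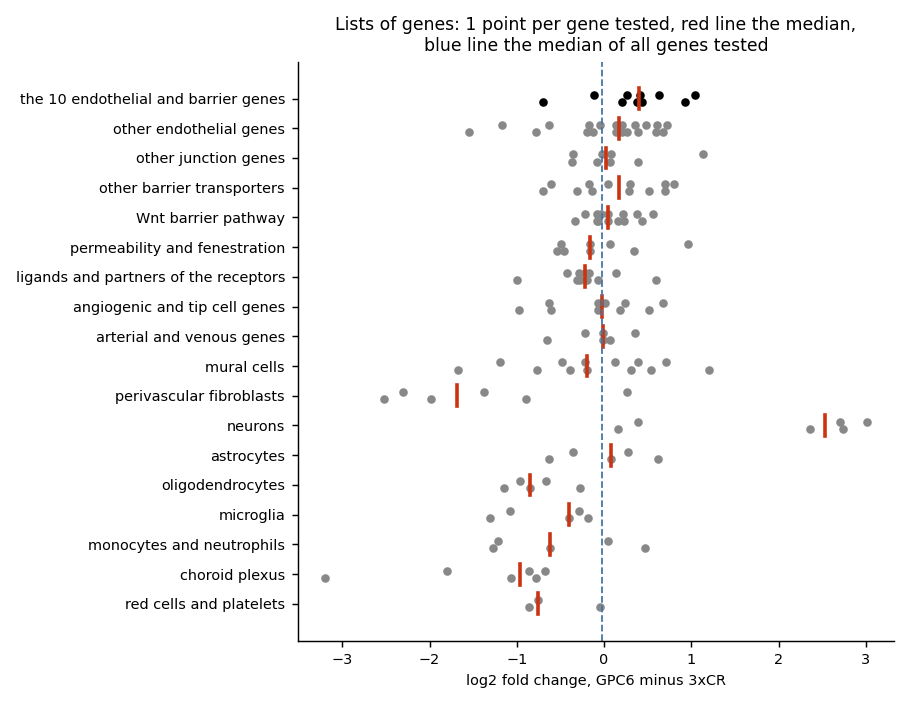
Fold change between GPC6 and 3xCR on the log2(normalized count + 1) scale (horizontal axis) for the genes of each list, 1 point per gene tested, with red lines for the median of a list and a dashed blue line for the median of all genes tested (-0.019). The lists of endothelial, junction, transporter, Wnt and angiogenic genes centre within 0.17 of 0 on either side, while the neuron list lies at 2.53 and the fibroblast list at -1.68.

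Across libraries the 10 genes did not form a single pattern. 3xCR replicate 2 was the lowest library for 4 of them and the highest for 1, 3xCR replicate 4 the highest for 3 and the lowest for 3, and GPC6 replicate 1 the highest for 3 and the lowest for 1. Together they took 2191 to 4301 reads per library. The genes outside the 10 whose log2 values were most like the mean of the 10 over the 7 libraries, by Pearson r, were Clpb (0.94), Cmtr1 (0.93), Tpcn1 (0.93), Nos3 (0.92) and Fbxo42 (0.91), of which Nos3 is an endothelial gene. This likeness describes 7 libraries and was picked from 14782 genes.

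**Figure D5:**
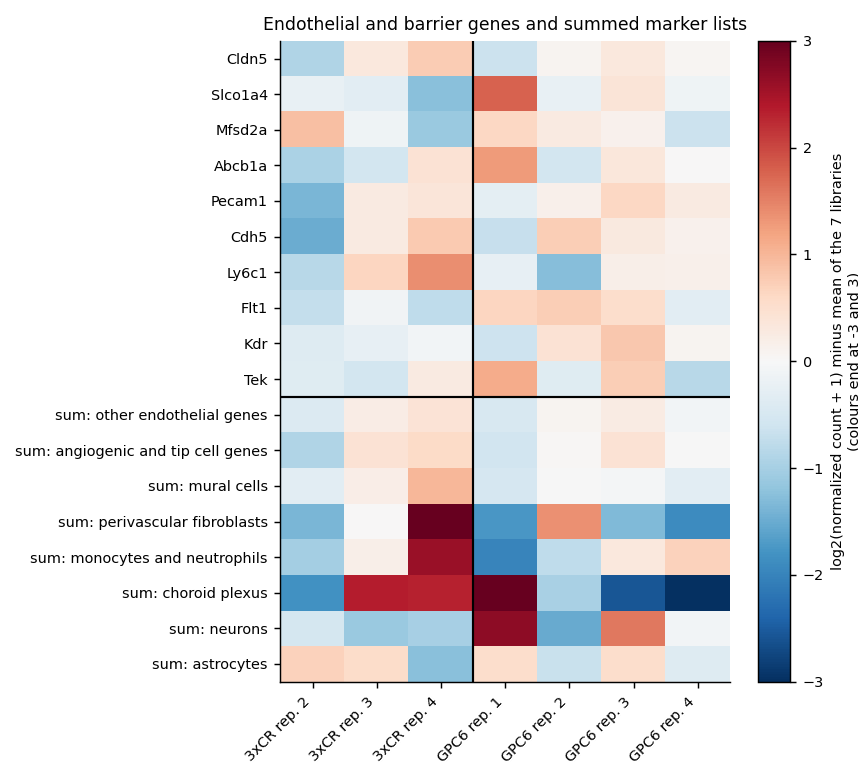
Log2(normalized count + 1) minus the mean of the 7 libraries (colour scale, ending at -3 and 3) for the 10 genes and, below the line, for the summed counts of marker lists, with the 3xCR libraries to the left of the vertical line. The sums of endothelial and angiogenic genes are lowest in 3xCR replicate 2 and GPC6 replicate 1, the libraries in which Cldn5, Pecam1 and Cdh5 are lowest, and Slco1a4 and Abcb1a are highest in GPC6 replicate 1, where neuron markers are highest.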

How the data were processed

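Bulk tumor RNA was sequenced from stranded, poly(A)-selected libraries, 1 per brain. Per the paper's methods and the submitters' processing notes, the authors aligned reads to mm10 with STAR 2.5.0a, counted them per gene and divided the counts by DESeq2 1.20.0 size factors. The deposited values are these normalized counts, a signal per gene on a linear scale. They carry no correction for gene length, rest on the assumption that most genes do not change, and how reads matching more than 1 gene were assigned is not given in the sources used here. Of 19282 entries, 25 with names turned into dates (0.254% to 0.361% of reads) were left out. Whole reads were recovered from the value of 1 read in each library, and 100% of values came within 0.01 of a whole number.

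Groups and replicate numbers came from the sample labels. The main test was limma 3.58.1 (R 4.3.3) on log2(normalized count + 1) over 14782 genes with a mean of at least 10, two-sided, with a trended variance and Benjamini-Hochberg adjustment over all of them. The study itself used DESeq2 on its counts. Here edgeR 4.0.16 and DESeq2 1.42.0 on the recovered reads were alternatives, because the deposited values are not counts. The limma and edgeR fits were tested on simulated counts. Their spread was set the same for every gene and was not taken from these data. The 10 genes and all lists were chosen with earlier results of these data known. Beside the 10, the genes named were, for each list, those of highest mean and of highest and lowest fold change, those with an unadjusted p under 0.05, near copies of the 10, and the 5 genes most like their mean. Gpc6 was named as a check of the labels. Angpt2, Plvap, Rbfox3, Tubb3, Tie1, Higd1b, Xist and Eif2s3y were also described after their values had been seen. Of 160 distinct genes, the 10 included, 4 had no row and 3 were matched by an older symbol. Coordinates and exon lengths are from GENCODE M21 for GRCm38, the assembly also known as mm10. As nothing states separate litters, p-values measure the spread between these tumors.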

Additional observations from a re-analysis of the deposited data

Results flagged for a closer look

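Dixon's test at the 95% level was applied to the highest and lowest of the 4 GPC6 values of each quantity. It marked 8 of 90 quantities, which share the same 4 libraries, and chance marks 1 in 20, or about 4.5. None of the levels of the 10 endothelial and barrier genes was among them, and the group of 3 was not examined. The ratio of Cldn5 to Pecam1 and Cdh5 was lowest in GPC6 replicate 2, at 2.35-fold against 2.70- to 2.74-fold in the other GPC6 libraries and 3.11- to 4.38-fold in 3xCR. GPC6 replicate 1 was lowest for Aif1 (218 normalized counts, against 688 to 842), Ecscr (12.4, against 63.8 to 85.0) and Tagln (60.3, against 237 to 293), and highest for Ttr (11813, against 10.9 to 31.9). Wnt7a was highest in GPC6 replicate 3 (336, against 197 to 213), Tnfrsf19 in GPC6 replicate 4 (2146, against 860 to 905) and Slco1a6 in GPC6 replicate 3 (0.89, which is 1 read, with no reads in the other GPC6 libraries). A single read beside zeros is always marked, so the mark on Slco1a6 carries no information. What set these libraries apart was not tested.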

How the results depend on the processing

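Under 18 alternative fits, 170 of 179 fold changes of the 10 genes kept their sign, and 6 genes had none that turned. The cause was not tested for those that did. Cldn5 went from -0.11 to 0.091 with the replicate number as a block, to 0.12 without GPC6 replicates 1 and 2 together, and to between -0.59 and 0.24 with 1 library left out. Mfsd2a (0.20) went to -0.14 without GPC6 replicates 1 and 2 together and to between -0.29 and 0.71 with 1 library left out, Pecam1 (0.43) to between -0.13 and 0.74, and Cdh5 (0.26) to between -0.41 and 0.73. Of the 10 genes, 0 passed adjustment under the alternatives, edgeR and DESeq2 included, except that limma with library weights called 1 (Kdr), in a fit that called 1962 genes (13.3%), while DESeq2 called 9 genes in all and left 5 of the 10 without an adjusted p, and edgeR called 0. The count at an unadjusted p under 0.05 was 1. It became 2 by DESeq2 (12.2% of all genes) and 5 with library weights (34.5%). With the replicate block it was 2 (Flt1 and Ly6c1, unadjusted p of 0.034 and 0.035 by limma, with 4.59% of all genes). Without GPC6 replicates 1 and 2 together it was 0 (6.1% of all genes). With 1 library left out it was 0 to 2, where 0.819% to 9.46% of all genes fell under 0.05. The count of other list genes at that level was 5, and became 12 by DESeq2, 8 by edgeR, 35 with library weights, 10 without GPC6 replicates 1 and 2 together, and 3 to 11 with 1 library left out. The shares of all genes in these fits are those just given, and 6.7% by edgeR. Genes of the 10 without overlap between groups, 0 in each direction, became 0 to 1 higher and 0 to 1 lower with 1 library left out, and 2 higher without GPC6 replicates 1 and 2 together. These shares grow as groups shrink: with 1 library left out 3.64% to 10.3% of all genes were higher and 4.28% to 10.6% lower without overlap, and with both GPC6 libraries out 11% and 12.7%. Over all genes, 689 had an unadjusted p under 0.05 (58.8% higher in GPC6), against 1793 by DESeq2 (69.8%), 991 by edgeR (56.0%), 713 with equal totals (68.0%), 716 with equal upper quartiles (46.8%) and 678 with the block (48.1%). It was 5105 with library weights, which put most weight on 3xCR replicate 3 and GPC6 replicate 3, and 121 without 3xCR replicate 4 to 1399 without GPC6 replicate 2. Tek could not be tested with a filter at a mean of 50. Libraries that share a replicate number did not deviate together throughout (r of -0.19, 0.12 and 0.30 for numbers 2, 3 and 4), so the block pairs them by number only. The highest r between a 3xCR and a GPC6 library was 0.50, for 3xCR replicate 2 and GPC6 replicate 1. Within this design of 3 against 4, the intervals above include differences of more than 1.5-fold for every one of the 10 genes.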
